A study of Rattus norvegicus with 6 samples.

Results

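Neuropeptides are short signalling peptides that are cut from larger precursor proteins in the secretory pathway, stored in dense granules and released to act on G protein-coupled receptors. Several of them are made inside the pituitary as well as in the brain, where they are known as local, or paracrine, signals that tune the release of prolactin, growth hormone, thyrotropin and the gonadotropins. The 10 genes described here are the precursor genes Gal, Nmu, Nmb, Nts, Vip, Tac1, Penk, Pdyn, Npy and Cartpt. The rule picks them by name, as neuropeptides made within the gland, and uses no measured value, although it was written with earlier results of these data known. They are 10 of the 33294 gene symbols counted.

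Pituitary RNA was sequenced from 6 male Sprague-Dawley rats aged 11 weeks, 3 per group with 1 library per rat. The dams of both groups carried a 28-day osmotic pump under the skin during pregnancy. It delivered nicotine tartrate at 6 mg/kg per day in the nicotine group and sterile saline in the control group. Litters were not given in the sources used here, so some rats may share a dam, and p-values measure the spread between these rats. Counts per library ranged from 28318383 to 85977002, and levels are given as CPM, the counts of a gene scaled to a common library size, after TMM, a method that corrects library sizes for a few dominant genes. Gh1, which encodes growth hormone, was at 52429 to 115788 CPM. The 7 testis markers, listed because the extraction label describes testis, were all removed by the filter on low counts, with a summed level of 0.0739 to 0.233 CPM. Markers of non-endocrine cells also differed between glands. The 5 smooth muscle markers summed to 36.6 to 172 CPM in the nicotine-labelled and 29.9 to 48.5 CPM in the control-labelled group, and the highest sum was mostly Tagln, at 138 CPM in nicotine replicate 3. All 5 had a log2 fold change above 0. Of them 3 had an unadjusted p under 0.05 in edgeR, the main test, against 3.13% of all genes tested in that direction. For Acta2 every nicotine-labelled library (2.21 to 2.74 CPM) was above every control-labelled one (0.259 to 0.984 CPM), as in 6.12% of all genes tested. The log2 fold change of Acta2 was 2.01, with an adjusted p of 0.492 in edgeR and 0.0015 in DESeq2, an alternative test. The 5 leukocyte markers summed to 24.0 to 26.8 and 17.7 to 109 CPM. The high sums, in control replicates 1 and 3, were mostly S100a8 and S100a9, and Cd68 and Cd3e were not high in control replicate 1. All 5 leukocyte markers had a log2 fold change below 0. Of them 3 had an unadjusted p under 0.05 in edgeR, against 3.01% of all genes tested in that direction. For Ptprc every nicotine-labelled library was below every control-labelled one, as in 5.14% of all genes tested. The 8 neuron markers summed to 21.6 to 25.0 CPM in the nicotine-labelled and 18.6 to 20.2 CPM in the control-labelled group. The 5 endothelial markers summed to 153 to 244 and 121 to 157 CPM. All 5 had a log2 fold change above 0, and 3 of them an unadjusted p under 0.05 in edgeR. For Pecam1 and Plvap every nicotine-labelled library was above every control-labelled one, as in 6.12% of all genes tested. The part of any of these cells in the levels below was not tested.

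A limit on the group labels precedes all directions below. The list of sequenced reads per library that accompanies the study gives the deeper libraries to the control group, whereas the count files labelled nicotine are the deeper ones. The counts of each file labelled nicotine exceed the reads listed for it, and replicate by replicate the reads listed for one group are nearly proportional to the counts of the other. Which source is exchanged cannot be told from the files, and an exchange would turn the sign of every difference given here. Groups are therefore named by the label of the count file.

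Many neuropeptide genes are known to carry a cyclic AMP response element, a short DNA motif bound by the transcription factor CREB. Promoter windows of 300 bases (250 before and 50 after the annotated start) from RefSeq, build GRCr8, matched 9 of the 10 genes. Penk was not matched. The core CGTCA was searched on both strands, and it was present in 6 of 9 windows (Gal, Nmu, Nts, Vip, Tac1 and Cartpt) and in 21.2% of the 33469 windows of all genes. The full palindrome TGACGTCA, which holds the core on both strands, was present in Cartpt alone of the 9 and in 1.83% of all windows. The 6 sites are printed to show how far their flanks differ around the shared core. They lay 63 to 206 bases before the start, and each is written 5′ to 3′ on the strand of its gene with the match in capitals. The reads themselves were mapped to another build, rn7. Whether these letters bear on the levels was not tested.
Cartpt, chr2:32991359-32991388, minus strand: ccggcgggcatTGACGTCAaacggcagcgg
Vip, chr1:44470371-44470400, plus strand: ggatcaccactgTGACGtctttcgaggagc
Tac1, chr4:36645365-36645394, plus strand: tccctaaaattgCGTCAtttcgaacccaat
Gal, chr1:210084618-210084647, minus strand: gcgctgagcgggTGACGcggcagctcccac
Nmu, chr14:32198828-32198857, plus strand: agcaggtccgggTGACGccagggagccagg
Nts, chr7:39461042-39461071, minus strand: attagggaagatCGTCActttcaatcaagg

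Of the 10 genes, 9 were expressed highly enough to be tested, each with at least 114 counts in every library. Between the groups 0 of these 9 were called, by edgeR's quasi-likelihood test, for which a call needed adjusted p < 0.1 together with a change of more than 1.5-fold. The background was 0% of the 17292 genes tested. DESeq2, which called 0.339% of the genes it gave an adjusted p, also called 0 of the 9, as did limma voom. At an unadjusted p under 0.05 in edgeR there was 1 gene, Tac1, against 6.14% of all genes tested (3.13% higher and 3.01% lower in the nicotine-labelled group). Tac1 was likewise the 1 gene of 9 whose groups did not overlap, against 11.3% of all genes tested (6.12% with every nicotine-labelled library above and 5.14% with every one below). The log2 fold change (labelled nicotine minus labelled control), given below with its standard error (SE), was above 0 for 4 genes and below 0 for 5, with a median of -0.09 against 0.007 for all genes tested.

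The neuropeptide genes differed widely from gland to gland within both groups. The ratio of the highest to the lowest of the 6 libraries ranged from 2.08 for Nmu to 10.3 for Cartpt, with a median of 3.67. Over the 11909 genes with at least 100 counts in every library, the median ratio was 1.54. All 9 genes were above that median, and a ratio as large as that of Cartpt was reached by 0.109% of those genes, as large as that of Tac1 by 0.160%, and as large as that of Nmu by 13.8%. Counting error was small beside this spread, at most 9.37% for the lowest count of any of the 9. Within the control-labelled group alone the ratio had a median of 1.87 over the 9 genes, against 1.26 over the deeper genes. Within the nicotine-labelled group it was 2.94 against 1.37. Nicotine replicate 2 stood apart and held the highest level of 26.9% and the lowest level of 26.8% of all genes tested. Without it the median ratio of the 9 genes was 2.44, against 1.38. Such spread was not particular to the neuropeptide genes, as some lists of cell type markers, given below, had a higher median ratio.

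**Figure D1:**
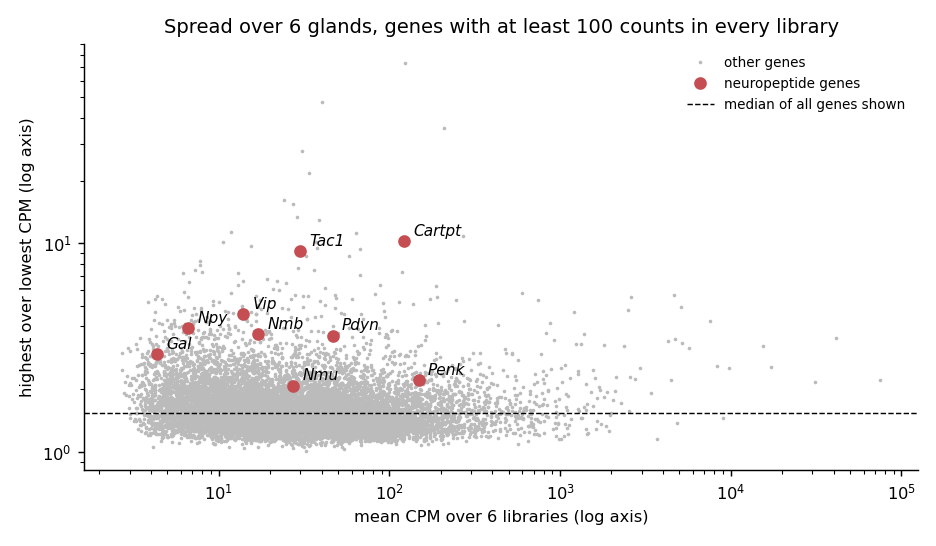
Each point is 1 gene with at least 100 counts in every library, plotted by its mean CPM (horizontal, log axis) and by the ratio of its highest to its lowest library (vertical, log axis), with the neuropeptide genes in red and the median of all genes shown, 1.54, as a dashed line. All 9 neuropeptide genes lie above the line, with Cartpt (10.3) and Tac1 (9.19) highest and Nmu (2.08) and Penk (2.21) lowest among them.

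**Figure D2:**
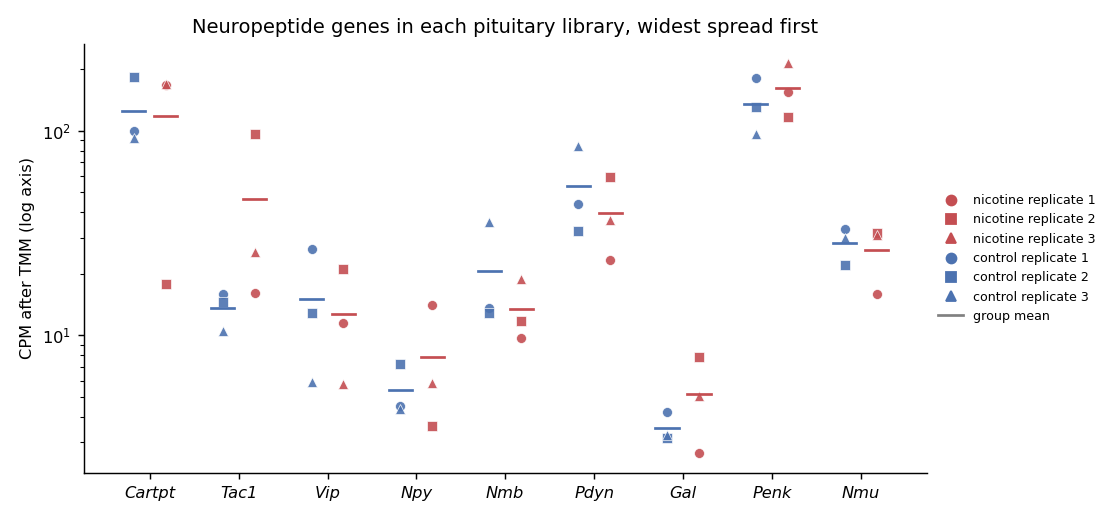
Level of each neuropeptide gene in CPM (vertical, log axis) in each of 6 libraries, control-labelled in blue and nicotine-labelled in red, with the marker shape giving the replicate and bars the group means. Genes are ordered by the ratio of their highest to lowest library, and the groups overlap for every gene but Tac1.

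Tac1 encodes the precursor of the tachykinins substance P and neurokinin A. Its level was 16.1, 96.9 and 25.7 CPM in nicotine replicates 1, 2 and 3, and 16.0, 14.5 and 10.5 CPM in control replicates 1, 2 and 3. A single library, nicotine replicate 2, was 3.77 times the next highest, and the groups were separated by 0.975%, less than the counting error of 5.01% at the lowest count. The group means were 46.2 ± 44.1 CPM (SD, n = 3) and 13.7 ± 2.82 CPM (SD, n = 3). This gave a log2 fold change of 1.76 (SE 0.53, edgeR adjusted p = 0.760). It was 0.61 without nicotine replicate 2, and 0.88 with limma voom, which weights libraries by quality. By the exact two-sided permutation test p was 0.1, the smallest that 3 libraries against 3 allow.

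The library that was highest for Tac1 was also highest for all 5 markers of gonadotrophs, the cells that secrete luteinizing and follicle-stimulating hormone. Lhb, the beta chain of luteinizing hormone, was at 819.9 CPM in nicotine replicate 2 and at 75.6 to 223 CPM in the other 5 libraries. Gnrhr, the receptor of gonadotropin-releasing hormone, was at 106 CPM there and at 21.0 to 34.6 CPM elsewhere. The summed level of the 5 markers was 2436 to 4819 CPM in the nicotine-labelled group and 2061 to 2953 CPM in the control-labelled group. Most of that sum is Cga, the alpha chain that thyrotropin shares. Gonadotroph markers were not alone in being highest in nicotine replicate 2, which held the highest level of 26.9% of all genes tested. So were 2 of 3 somatotroph, 2 of 3 corticotroph and 4 of 5 pituicyte markers, and Avp and Oxt. The part of any of these cells in the level of Tac1 was not tested. In whole glands more cells of a type and more RNA per cell cannot be told apart.

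Gal encodes galanin, known in the rat pituitary as a peptide induced by estrogen. It was at 2.65, 7.80 and 5.06 CPM in the nicotine-labelled and 4.21, 3.14 and 3.28 CPM in the control-labelled libraries. Nicotine replicate 2 was again the highest, but nicotine replicate 1 was the lowest of all 6, so the groups overlapped. For Gal the log2 fold change was 0.58 (SE 0.35, edgeR adjusted p = 0.827), and it was 0.15 without nicotine replicate 2.

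Cartpt encodes the precursor of CART peptides, which reduce feeding when given into the brain. Its level was 167, 17.8 and 169 CPM in the nicotine-labelled and 99.6, 183 and 92.6 CPM in the control-labelled libraries. Nicotine replicate 2, the library highest for Tac1, was thus the lowest for Cartpt, and the next lowest library was 5.20 times as high. The group means, 118 ± 86.7 and 125 ± 50.2 CPM (SD, n = 3 each), differed by less than the spread between rats (log2 fold change -0.09, SE 0.60, edgeR adjusted p = 0.983). The sign turned without nicotine replicate 2, to 0.41, and without control replicate 2, to 0.29. In the same library the thyrotroph genes Tshb, the beta chain of thyrotropin, and Trhr, the receptor of thyrotropin-releasing hormone, were at 479.5 and 16.0 CPM, also the lowest of the 6. The remaining gene of the thyrotroph list, Cga, the alpha chain shared with the gonadotropins, went the other way and was highest there, at 2970 CPM. The 3 genes summed to 2538 to 5011 CPM in the nicotine-labelled and 2696 to 3548 CPM in the control-labelled group. Prl, the prolactin gene, was lowest there too, with 17547 CPM there and 25328 to 38038 CPM elsewhere, but the other lactotroph markers were not, with Pou1f1 at 347 CPM (251 to 412 CPM elsewhere) and Drd2 at 94.6 CPM (71.7 to 155 CPM elsewhere). The 3 lactotroph markers, nearly all of whose sum is Prl, summed to 17989 to 38114 and 25734 to 38441 CPM. The part of either cell type in the level of Cartpt was not tested.

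Npy, the gene of the feeding peptide neuropeptide Y, was at 14.2, 3.61 and 5.88 CPM in the nicotine-labelled and 4.54, 7.28 and 4.36 CPM in the control-labelled libraries. Nicotine replicate 1 was 1.94 times the next library and nicotine replicate 2 was the lowest, so the nicotine-labelled group alone spanned the range of all 6. Its log2 fold change was 0.52 (SE 0.44, edgeR adjusted p = 0.844) and turned to -0.21 without nicotine replicate 1.

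Vip encodes vasoactive intestinal peptide, a known stimulator of prolactin release. It was at 11.5, 21.0 and 5.80 CPM in the nicotine-labelled and 26.6, 12.9 and 5.92 CPM in the control-labelled libraries. Each group ran through the same span from low to high, with the ratio of highest to lowest at 3.63 and 4.49. Between groups the log2 fold change was -0.23 (SE 0.51, edgeR adjusted p = 0.942). It was 0.12 without nicotine replicate 3 and 0.44 without control replicate 1.

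The opioid precursor genes Penk and Pdyn encode the enkephalins and the dynorphins. Penk was at 154, 117 and 213 CPM in the nicotine-labelled and 181, 130.1 and 96.7 CPM in the control-labelled libraries. It was among the steadier of the 9 genes, with a ratio of 2.21, and its log2 fold change was 0.25 (SE 0.26, edgeR adjusted p = 0.859). Pdyn was at 23.3, 59.5 and 36.6 CPM in the nicotine-labelled and 44.1, 32.2 and 84.1 CPM in the control-labelled libraries. Control replicate 3 was the highest and nicotine replicate 1 the lowest. The log2 fold change of Pdyn was -0.42 (SE 0.37, edgeR adjusted p = 0.849), and it was 0.07 without control replicate 3.

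Nmb and Nmu encode neuromedin B, a bombesin-like peptide known to restrain thyrotropin release, and neuromedin U, known to contract smooth muscle and to reduce feeding. Nmb was at 9.72, 11.8 and 18.8 CPM in the nicotine-labelled and 13.6, 12.8 and 35.6 CPM in the control-labelled libraries. As for Pdyn, control replicate 3 was the highest and nicotine replicate 1 the lowest. The log2 fold change of Nmb was -0.62 (SE 0.38, edgeR adjusted p = 0.827), and it was 0.03 without control replicate 3. Nmu was at 15.9, 31.7 and 31.0 CPM in the nicotine-labelled and 33.1, 22.1 and 29.9 CPM in the control-labelled libraries. Apart from the low nicotine replicate 1 these ran from 22.1 to 33.1 CPM. Between groups the log2 fold change of Nmu was -0.11 (SE 0.26, edgeR adjusted p = 0.944). It was 0.15 without nicotine replicate 1 and 0.01 without control replicate 1.

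The library highest for Pdyn and Nmb was the highest for all 4 markers of melanotrophs, the proopiomelanocortin cells of the intermediate lobe. In control replicate 3 the transcription factor gene Pax7 reached 93.6 CPM, and the remaining 5 libraries held 12.5 to 47.9 CPM. Oacyl was at 201 CPM there and at 21.2 to 69.7 CPM elsewhere. The 4 markers, most of whose sum is Pomc, summed to 20665 to 46577 CPM in the nicotine-labelled and 36292 to 72399 CPM in the control-labelled group. Pax7, Oacyl and Pcsk2 were lowest in nicotine replicate 1, which was also the lowest library for Pdyn and Nmb. Pomc went otherwise and was lowest in nicotine replicate 2, at 20411.5 CPM, against 27330 CPM in nicotine replicate 1. Melanotroph markers were not alone in being highest in control replicate 3, which held the highest level of 14.1% of all genes tested. So were the lactotroph marker Drd2 and the leukocyte markers Ptprc, Cd68 and Cd3e. Nicotine replicate 1 held the lowest level of 15.2% of all genes tested. The part of the intermediate lobe in these levels was not tested.

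Nts, the gene of neurotensin, was at the limit of detection, with 2, 0 and 0 counts in the nicotine-labelled and 0, 1 and 0 counts in the control-labelled libraries. A count of 0 allows up to 3 counts, or 0.0349 to 0.106 CPM depending on the library, and this limit covers counting error only. No fold is given for Nts.

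**Figure D3:**
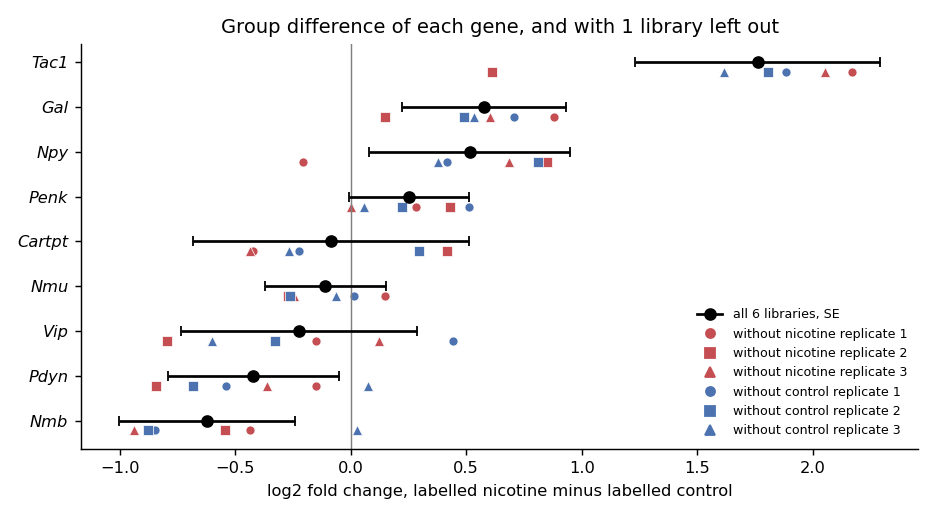
Log2 fold change of each tested neuropeptide gene, labelled nicotine minus labelled control (horizontal), with all 6 libraries (black, bars 1 standard error) and with each library left out in turn (coloured markers). The values of Cartpt, Nmu, Vip, Npy, Pdyn and Nmb fall on both sides of 0, and those of Tac1 stay above 0 but reach 0.61 without nicotine replicate 2.

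Leaving out single libraries turned the sign of the difference for 6 of the 9 neuropeptide genes, and for 7785 of all 17292 genes tested. The exceptions were Tac1, Gal and Penk, and the value of Penk came down to 4.71e-04 without nicotine replicate 3.

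**Figure D4:**
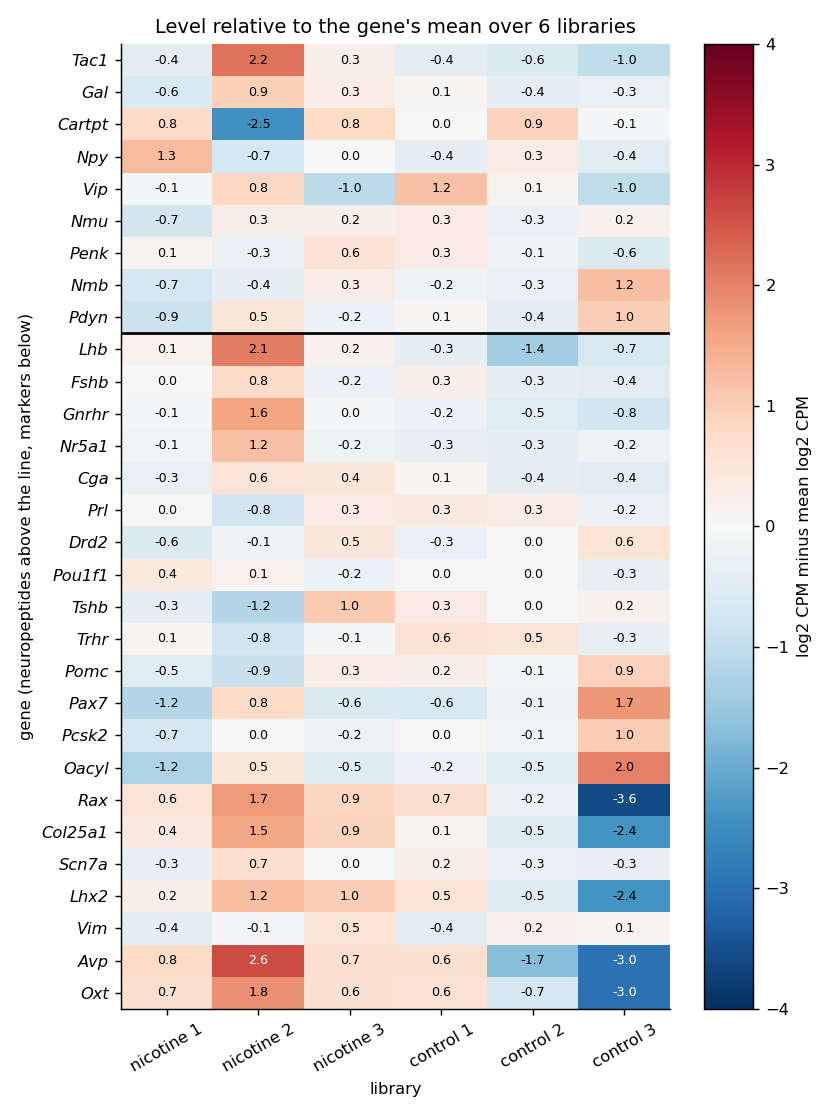
Log2 CPM of each gene in each library minus the mean of that gene over 6 libraries (color, and printed in the cells), for the 9 neuropeptide genes above the line and, below it, the marker lists of gonadotrophs, lactotrophs, thyrotrophs, melanotrophs and pituicytes, then Avp and Oxt. Nicotine replicate 2 has Tac1 (2.17) and Lhb (2.06) high and Cartpt (-2.45) low, and control replicate 3 has Nmb (1.21), Pdyn (0.98) and the melanotroph markers high and Rax (-3.58) low.

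Of 21 receptor genes listed, 10 were tested and 11 were removed by the filter, which kept 17292 of all 33294 symbols, and 0 of the 10 were called by edgeR, DESeq2 or limma voom. At an unadjusted p under 0.05 in edgeR 2 were higher (background 3.13%) in the nicotine-labelled group and 0 were lower. The median log2 fold change of the 10 was 0.32, against 0.007 for all genes tested. The receptors of neuromedin B and neuromedin U, Nmbr, Nmur1 and Nmur2, were among those removed, with at most 12, 3 and 2 counts in any library. So were the mu and delta opioid receptors Oprm1 and Oprd1, with at most 4 and 2 counts.

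The kappa opioid receptor Oprk1, the receptor for dynorphins, was the 1 opioid receptor tested. It was at 0.679, 1.63 and 0.595 CPM in the nicotine-labelled and 1.07, 0.662 and 0.343 CPM in the control-labelled libraries. The groups overlapped (log2 fold change 0.61, SE 0.51, edgeR adjusted p = 0.843). Npy1r, a receptor of neuropeptide Y, was at 0.912, 1.74 and 0.644 CPM in the nicotine-labelled and 0.443, 0.586 and 0.528 CPM in the control-labelled libraries. Each of the former was above each of the latter (background 6.12%), with a log2 fold change of 1.10 (SE 0.45, edgeR adjusted p = 0.806). Npy2r, the other gene with an unadjusted p under 0.05, differed by 1.77 on the log2 scale, and its groups overlapped (SE 0.78, edgeR adjusted p = 0.806). The highest library of Oprk1, Npy1r and Npy2r was nicotine replicate 2.

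The remaining families showed no called receptor either. Vipr2, a receptor of vasoactive intestinal peptide, was at 3.41 ± 1.19 and 2.96 ± 1.13 CPM (SD, n = 3 each) in the nicotine-labelled and control-labelled groups. Galr2, a galanin receptor, was at 0.691 ± 0.139 and 1.00 ± 0.285 CPM. Tacr1, the substance P receptor, was at 0.188 ± 0.0960 and 0.281 ± 0.0456 CPM. Sort1, which encodes sortilin, a sorting receptor that binds neurotensin among many ligands, was at 161 ± 39.1 and 146 ± 6.27 CPM. Adjusted p in edgeR for these 4 genes lay between 0.832 and 0.927.

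**Figure D5:**
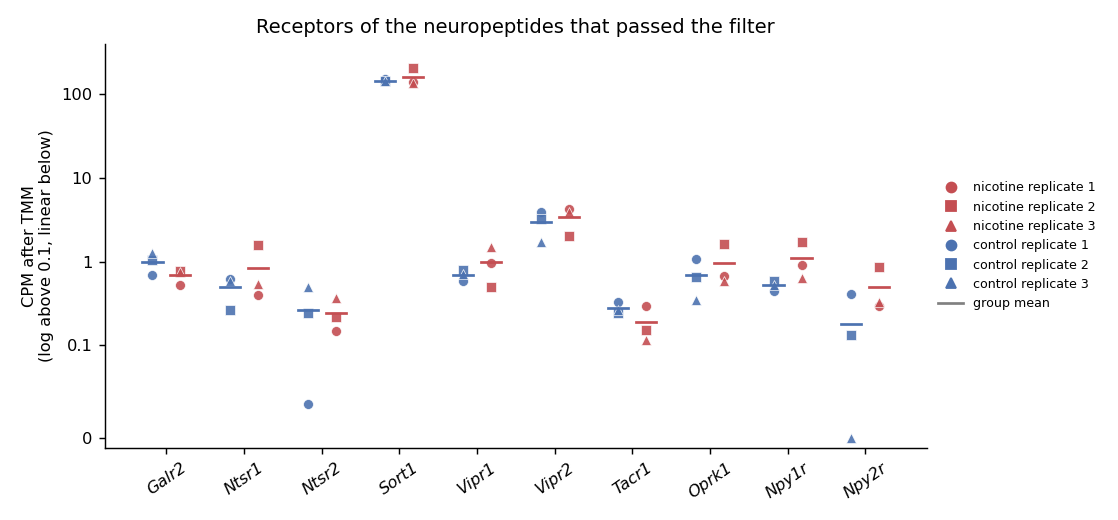
CPM of the 10 receptor genes that passed the filter (vertical, log axis above 0.1 CPM and linear below) in each library, control-labelled in blue and nicotine-labelled in red, with bars for group means. The groups overlap for 9 of the 10, and every nicotine-labelled library is above every control-labelled one for Npy1r. Of all genes tested, 11.3% have groups that do not overlap, and 6.12% have every nicotine-labelled library above.

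Other peptide precursors were read from a list of 39 genes, of which 18 were tested. Of these, 0 were called by edgeR, DESeq2 or limma voom, and 5 (Avp, Oxt, Apln, Npb and Nppc) had an unadjusted p under 0.05 in edgeR, all higher in the nicotine-labelled group (background 3.13%). The median log2 fold change of the 18 was 0.39, against 0.007 for all genes tested. Avp and Oxt encode vasopressin and oxytocin, the hormones that hypothalamic neurons release in the posterior lobe. Avp was at 35.7, 129 and 33.6 CPM in the nicotine-labelled and 32.3, 6.56 and 2.72 CPM in the control-labelled libraries. Its log2 fold change was 2.28 (SE 0.77, edgeR adjusted p = 0.760), and that of Oxt was 1.58 (SE 0.63, edgeR adjusted p = 0.806). The groups did not overlap for either gene (background 11.3%), though for Oxt the nearest libraries were at 31.6 and 31.2 CPM, and control replicate 3 was lowest for both.

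Pituicyte markers tended to be highest and lowest in the same libraries as Avp and Oxt. Rax, a homeobox gene of these posterior lobe glia, was at 11.2 CPM in nicotine replicate 2 and at 0.291 CPM in control replicate 3. Of the 5 pituicyte markers 4 were highest in the first of these libraries and 3 lowest in the second. The sum of the 5 was 143 to 233 CPM in the nicotine-labelled and 162 to 176 CPM in the control-labelled group. Most of that sum is Vim and Scn7a, which were not lowest in control replicate 3. The part of the posterior lobe in the levels of the peptide genes was not tested. Galp, which encodes galanin-like peptide, had the largest log2 fold change of the list, 2.45 (SE 1.14, edgeR adjusted p = 0.807), with 4.39 CPM in nicotine replicate 2 and at most 0.960 CPM elsewhere. Calcb, a calcitonin gene-related peptide gene, was at 24.9 ± 15.3 and 27.9 ± 11.1 CPM (SD, n = 3 each).

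The enzymes and chaperones that mature peptide precursors, and the peptidases that break peptides down, were read from a list of 16 genes. All were tested, 0 were called by edgeR, DESeq2 or limma voom, and at an unadjusted p under 0.05 in edgeR 1 was higher (background 3.13%) and 2 were lower (background 3.01%) in the nicotine-labelled group. Their median ratio of highest to lowest library was 1.62. It was 3.01 for both the receptors and the other peptide precursors, 3.67 for the 9 neuropeptide genes and 1.70 for all genes tested. Among the cell type markers it was 5.51 for melanotrophs, 7.75 for leukocytes, 10.6 for smooth muscle and 12.0 for pituicytes. The remaining marker lists with tested genes had medians of 1.98 to 3.52. These lists differ in depth, and counting error adds to the ratio of genes with few counts, such as Tacr1, with 7 to 14 per library. Npy2r, with a count of 0 in control replicate 3, has no ratio and is not in the receptor median. Cpe, the carboxypeptidase that trims cleaved peptides, was at 1972 ± 414 and 1957 ± 364 CPM (SD, n = 3 each). Pam, the enzyme that amidates their ends, was at 1134 ± 320 and 1059 ± 143 CPM, and Scg5, the chaperone of prohormone convertase 2, was at 907 ± 127 and 1033 ± 27.2 CPM. The largest difference of the list was that of Dpp4, a peptidase whose substrates include neuropeptide Y, with a log2 fold change of -1.01 (SE 0.37, edgeR adjusted p = 0.785). The other genes with an unadjusted p under 0.05 were Ace, the angiotensin-converting enzyme, at 0.77 and Pcsk2, prohormone convertase 2, at -0.67. For Pcsk2 the groups overlapped, and its highest level, 278 CPM, was in control replicate 3. That library was highest for all 4 melanotroph markers, of which Pcsk2 is 1.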

How the data were processed

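The authors mapped paired-end, strand-specific reads to rn7 with HISAT2 2.1.0 and assigned them to ncbiRefSeq genes with featureCounts. The deposited values are whole-number counts per gene symbol, 1 file per library, without normalization. Whether reads or pairs were counted, the strand setting and the handling of reads with several map positions are not given in the sources used here, so overlapping and antisense genes cannot be told apart.

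Calculations were done in R 4.3.3. Of 33294 symbols, 24546 had a count and filterByExpr kept 17292. After TMM scaling the groups were compared with edgeR 4.0.16 (glmQLFit with the newer fit, glmQLFTest, no covariate), with Benjamini-Hochberg adjustment over all genes tested. Calls used the study's thresholds, adjusted p < 0.1 with a change of more than 1.5-fold. DESeq2 1.42.0, the study's tool, and limma 3.58.1 voom were alternatives. The procedure was tested on simulated counts. Standard deviations are over CPM of 3 rats. Exact permutation tests were on log2 CPM. Gene lengths of the build were not used here, so levels are not compared between genes in the text. Abundance in the naming rule means CPM and is not corrected for length.

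The members, gene lists and naming rule were chosen with earlier results of these data known. The text names all members, the most abundant tested receptor of each peptide family, and of the other lists the 3 most abundant genes and the one with the largest change. Marker genes are named where their level moves with that of a member. Genes named beyond this (Nmbr, Nmur1, Nmur2, Oprm1, Oprd1, Npy2r, Apln, Npb, Nppc, Ace, Pcsk2 and the smooth muscle, leukocyte and endothelial markers) were picked once their values were known. Of the listed genes, Nms and Avpr1b were not analysed here.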

Additional observations from a re-analysis of the deposited data

How the results depend on the processing

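None of the 9 neuropeptide genes was called under any of the 17 settings tried, and the counts of called receptors, other peptide genes and maturation or breakdown genes stayed at 0 in them. Since no adjusted p of a member came below 0.380, these zeros say little about stability. Over all genes tested, where edgeR called 0, DESeq2 called 61. Thinning every library to the smallest, library sizes alone and limma voom (sample quality weights) each called 1, no filter called 2, and the replicate number as a block called 2. Leaving out 1 library at a time called 0 to 9. The deviations of same-numbered libraries from their group means correlated at 0.03, -0.20 and -0.08. With 3 libraries per group these correlations cannot tell whether the numbers pair the rats. The block called 0 members. The cause of these differences was not tested.

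Of 144 comparisons of a member's log2 fold change with its main value, 132 kept the sign and 12 turned it. With 1 library left out the values ran from -0.27 to 0.15 for Nmu, -0.94 to 0.027 for Nmb, -0.80 to 0.44 for Vip, -0.84 to 0.073 for Pdyn, -0.21 to 0.85 for Npy and -0.44 to 0.41 for Cartpt. Cartpt was also at 0.012 with limma voom. With nicotine replicate 2 and control replicate 3 left out together, a setting chosen after seeing the data, Nmb was at 0.11 and Cartpt at 0.24, and Tac1 at 0.46. Vip had the largest difference in that setting, -1.18 (SE 0.37, edgeR adjusted p = 0.656), and its main value was -0.23. A comparison of levels per gene length was not run.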
